A study of Homo sapiens with 6 samples.

Results

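The class II and class IV histone deacetylase genes HDAC4, HDAC5, HDAC7, HDAC9, HDAC10 and HDAC11 were followed in the deposited H3AcK9 ChIP-seq peak lists of SKOV3 WT cells. They were chosen by name and hg19 position, as 6 of the 11 classical HDAC genes, and each locus was taken as the gene with 10 kb on each side. SKOV3 WT is an established human ovarian carcinoma line. Cultures stayed untreated or received vorinostat or romidepsin at 1× IC50 for 24 h, and chromatin was precipitated with an antibody against histone H3 acetylated at lysine 9 (H3AcK9). There were 6 samples, namely 1 ChIP and 1 input per condition, and the inputs enter no result. Untreated cells gave 1 peak list, and each treated sample gave 2 lists. As both lists come from the same sample, they were not treated as replicates, their mean was used as the treated value, and no test between conditions was possible. The untreated list also serves as the control for both drugs.

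H3AcK9 marks active promoters and enhancers, and it is removed by deacetylases. HDAC4, HDAC5, HDAC7 and HDAC9 form class IIa, whose enzymes shuttle between nucleus and cytoplasm, bind MEF2 transcription factors through their N-terminal part and have weak catalytic activity of their own, acting with HDAC3 in corepressor complexes. HDAC10 belongs to class IIb and is a polyamine deacetylase. HDAC11 is the sole member of class IV and removes fatty acyl groups. Vorinostat is a hydroxamate that inhibits many zinc-dependent deacetylases, while romidepsin is a depsipeptide selective for class I enzymes. The 6 genes therefore encode relatives of the romidepsin targets rather than the targets themselves.

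In hg19, HDAC4 lies on the minus strand at chr2:239970000-240323000, HDAC5 on the minus strand at chr17:42154000-42201000 and HDAC7 on the minus strand at chr12:48176000-48214000. HDAC9 lies on the plus strand at chr7:18126000-19042000, HDAC10 on the minus strand at chr22:50683000-50690000 and HDAC11 on the plus strand at chr3:13521000-13548000. These ends are given to the nearest 1 kb. The genes range in length from 7 kb for HDAC10 to 916 kb for HDAC9, and HDAC9 therefore makes up most of the summed length of the 6 loci and of the 6 bodies. The annotation of GENCODE 44 (hg38) places exons over 79.6% of HDAC10, over 16.2% to 19.7% of HDAC5, HDAC7 and HDAC11, over 4.01% of HDAC4 and over 1.89% of HDAC9. The body of HDAC4 and HDAC9 is thus almost wholly intron, whereas that of HDAC10 is not. For HDAC7 this annotation spans 50.4 kb, against the 38 kb followed here, and begins further upstream. Its exon share and its neighbours below refer to the longer gene, and its upstream flank may lie inside that gene. Within 10 kb, the same annotation lists other genes at every locus, among them G6PC3 and LSM12 downstream of or overlapping HDAC5, SLC48A1, LINC02354 and VDR around HDAC7, MAPK12 upstream of and TUBGCP6 downstream of HDAC10, and antisense RNAs at HDAC4, HDAC9 and HDAC11. A peak in a flank may therefore belong to a neighbour, and the lists do not tell these apart.

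The 250 bases upstream of the first RefSeq start follow for the members whose promoters differed most between conditions or were richest in GC boxes, together with the same stretch before a further start far inside HDAC9. They are given for GRCh38.p14 with GC boxes (GGGCGG on either strand, so also CCGCCC) in capitals. RefSeq promoters were at hand for 5 of the 6 members, and HDAC5 was the exception.
HDAC4, chr2:239401650-239401899, minus strand: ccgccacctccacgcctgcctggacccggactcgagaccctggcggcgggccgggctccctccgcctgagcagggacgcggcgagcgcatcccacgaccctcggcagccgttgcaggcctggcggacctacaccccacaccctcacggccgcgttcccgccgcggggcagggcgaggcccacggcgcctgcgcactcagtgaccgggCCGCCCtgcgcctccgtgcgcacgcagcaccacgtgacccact
HDAC9, chr7:18086575-18086824, plus strand: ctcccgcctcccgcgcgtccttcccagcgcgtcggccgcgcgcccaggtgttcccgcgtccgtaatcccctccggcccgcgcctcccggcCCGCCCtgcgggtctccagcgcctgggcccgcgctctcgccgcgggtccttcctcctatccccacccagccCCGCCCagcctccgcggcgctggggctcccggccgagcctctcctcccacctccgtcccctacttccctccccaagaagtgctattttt
HDAC10, chr22:50251266-50251515, minus strand: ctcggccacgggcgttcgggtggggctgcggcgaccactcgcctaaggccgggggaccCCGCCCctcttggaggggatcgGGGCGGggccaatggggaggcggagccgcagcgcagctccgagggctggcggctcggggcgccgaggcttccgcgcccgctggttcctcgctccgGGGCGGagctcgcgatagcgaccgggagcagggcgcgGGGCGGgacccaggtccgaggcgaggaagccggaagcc
HDAC11, chr3:13480056-13480305, plus strand: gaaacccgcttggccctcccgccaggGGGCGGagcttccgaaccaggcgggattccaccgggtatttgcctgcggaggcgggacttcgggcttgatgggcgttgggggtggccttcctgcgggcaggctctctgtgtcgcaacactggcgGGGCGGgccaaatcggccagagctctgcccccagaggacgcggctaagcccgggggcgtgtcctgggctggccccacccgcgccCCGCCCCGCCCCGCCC
HDAC9 internal start, chr7:18495460-18495709, plus strand: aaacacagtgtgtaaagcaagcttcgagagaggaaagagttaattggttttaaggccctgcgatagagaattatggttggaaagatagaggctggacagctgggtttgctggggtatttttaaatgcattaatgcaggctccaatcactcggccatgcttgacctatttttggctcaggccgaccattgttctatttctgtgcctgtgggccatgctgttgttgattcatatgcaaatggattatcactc

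The first-start stretches were rich in CpG, with 33 CpG and 76.8% GC at HDAC4, 28 and 75.6% at HDAC7, 32 and 75.2% at HDAC9, 35 and 78.0% at HDAC10, and 24 and 73.6% at HDAC11. The median over all 35116 RefSeq promoters was 11 CpG and 58% GC. GC boxes numbered 5 at HDAC11, 4 at HDAC10, 2 at HDAC9, 1 at HDAC4 and 0 at HDAC7, while 42.6% of all promoters held at least 1. HDAC10 alone of these held a CCAAT box (CCAAT on either strand, found in 32.0% of all promoters). None of the 5 held TATAAA, which 10.7% of all promoters did. The HDAC9 internal start was of another kind, with 4 CpG, 44% GC, no GC box and 2 CCAAT boxes. These matches describe the letters of a window and were not tested as binding sites.

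The labelled cell type was checked by the promoter window, which is the 4 kb centred on the 5′ end. ERBB2, which is amplified in SKOV3, was covered by peaks over 85.2% to 100% of this window, PAX8 over 85.9% to 100% and KRT18 over 70.6% to 77.7% in the 5 lists. The leukocyte gene PTPRC was covered over 7.40% in untreated cells and 0% in the treated lists, and the liver gene ALB over 0% to 1.28%. This check concerns the promoter window only. The body of PTPRC was covered over 14.8% in untreated cells and 10.2% to 12.3% in the treated lists. In untreated cells the bodies of ALB, HDAC9 and HDAC4 were covered over 3.39%, 6.31% and 15.3%. Body coverage at the 2 long members was thus no clear mark of a gene used in these cells. Genome-wide, the untreated list held 376666 peaks of median width 537 bp over 344 Mb, on 28 chromosomes and contigs. The treated lists held 884242 to 913199 peaks of median width 203 to 219 bp over 296 to 325 Mb. Their peaks lay on 27 and 26 chromosomes and contigs with vorinostat, and on 23 and 21 with romidepsin. The sums in Mb are thus not over the same chromosomes. With romidepsin, part of the difference in Mb lies on chromosomes without a listed peak, among them chromosome X. The difference in peak width accompanies every comparison below, and its part in the results was not tested. The lists carry no read numbers, and the depth behind each peak is unknown.

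In untreated cells, the share of the locus under peaks was highest at HDAC7 (67.5%) and HDAC11 (61.5%), followed by HDAC5 (46.0%), HDAC10 (39.0%), HDAC4 (16.6%) and HDAC9 (6.57%). The long genes were thus the least covered, even though they held the most peaks, with 103 at HDAC9 and 70 at HDAC4 against 10 to 23 at the other 4. Their promoters did not stand back in the same way. The promoter window was fully covered at HDAC7 and covered over 94.7% at HDAC4, 86.2% at HDAC11, 76.2% at HDAC9, 74.8% at HDAC5 and 49.1% at HDAC10. At HDAC7, a single untreated peak of 23194 bp ran across the 5′ end, and at HDAC4, HDAC11 and HDAC5 single peaks of 6497, 4516 and 3466 bp did so.

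**Figure D1:**
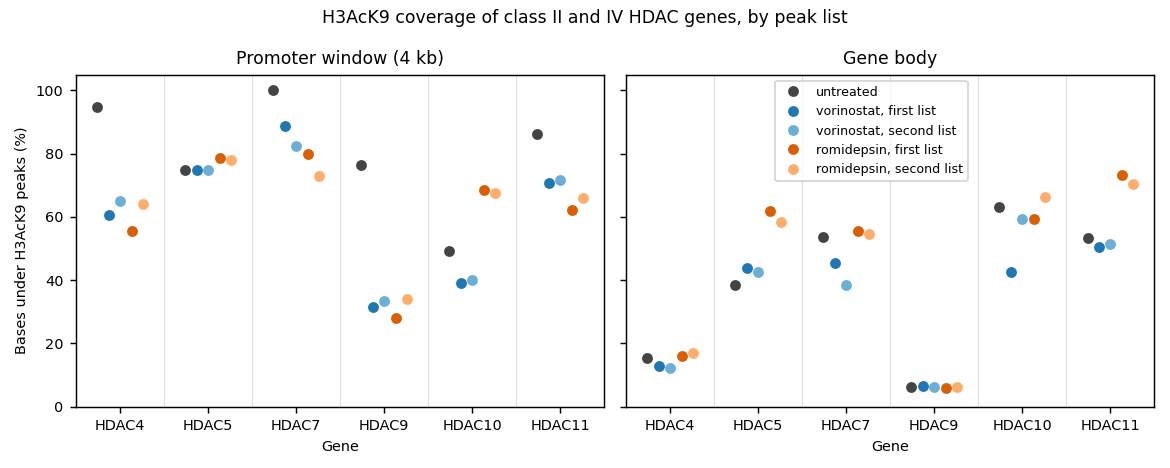
Percent of bases under H3AcK9 peaks in the 4 kb promoter window (left) and in the gene body (right) of each gene, with 1 point per peak list and no error bars because each condition is 1 sample. The HDAC9 promoter stood at 76.2% untreated and between 28.0% and 34.0% in the treated lists, while its body lay between 5.88% and 6.34% in all 5.

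Among the class IIa promoters, HDAC9 differed most. At HDAC9, which encodes a repressor of MEF2 target genes in muscle and T cells, the promoter window was covered over 76.2% in untreated cells, 31.4% and 33.2% with vorinostat, and 28.0% and 34.0% with romidepsin. All 4 treated lists lay below the untreated one, at 0.42-fold with vorinostat and 0.41-fold with romidepsin. Untreated cells had a peak of 2701 bp across the 5′ end and another of 1758 bp further into the gene. A peak across the 5′ end remained in every treated list, but it was shorter, with 1082 bp in each vorinostat list and 620 or 924 bp with romidepsin. The second untreated peak was covered only in part.

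At HDAC4, a regulator of chondrocyte hypertrophy and muscle gene expression, the promoter window was covered over 94.7% in untreated cells, 60.6% and 65.0% with vorinostat, and 55.6% and 64.0% with romidepsin. This was 0.66-fold and 0.63-fold. The single untreated peak was replaced by 2 to 5 separate peaks reaching into the window, and no treated list had a peak at the stated 5′ end itself. With romidepsin the loss extended upstream. The upstream flank, from 2 to 10 kb before the 5′ end, went from 35.7% in untreated cells to 25.8% and 22.1% with vorinostat and to 9.74% and 10.1% with romidepsin.

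HDAC7, known for its role in endothelial cells and thymocytes, went from a fully covered promoter window to 88.8% and 82.3% with vorinostat and 79.8% and 72.8% with romidepsin. The folds were 0.86 and 0.76. HDAC5, a signal-responsive repressor of cardiac growth genes, differed least. Its window was covered over 74.8% in untreated cells, 75.0% and 74.9% with vorinostat, and 78.5% and 78.0% with romidepsin. With vorinostat its 5′ peak kept nearly the untreated width, at 3407 and 3449 bp against 3466 bp. With romidepsin it was split in both lists, into 2705 and 1264 bp in the first and 2287 and 1242 bp in the second, leaving the stated 5′ end between the parts.

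With peaks as listed, HDAC10 was the only member whose promoter window moved to opposite sides of the untreated value with the 2 drugs. With neighbouring peaks joined over gaps of up to 300 bp, HDAC11 did so too (1.03 and 0.82). With gaps of up to 1000 bp, HDAC10 was at 0.55 with vorinostat and 1.00 with romidepsin. As listed, the HDAC10 window was covered over 49.1% in untreated cells, 39.1% and 40% with vorinostat, and 68.3% and 67.5% with romidepsin, or 0.81-fold and 1.38-fold. The additional romidepsin bases lay upstream of the gene, where a peak of 1324 and 1336 bp took the place of a 186 bp untreated peak. HDAC11 was covered over 86.2% in untreated cells, 70.7% and 71.6% with vorinostat, and 62.1% and 66.0% with romidepsin, at 0.83-fold and 0.74-fold. In each treated list its single 5′ peak of 4516 bp gave way to 4 peaks.

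**Figure D2:**
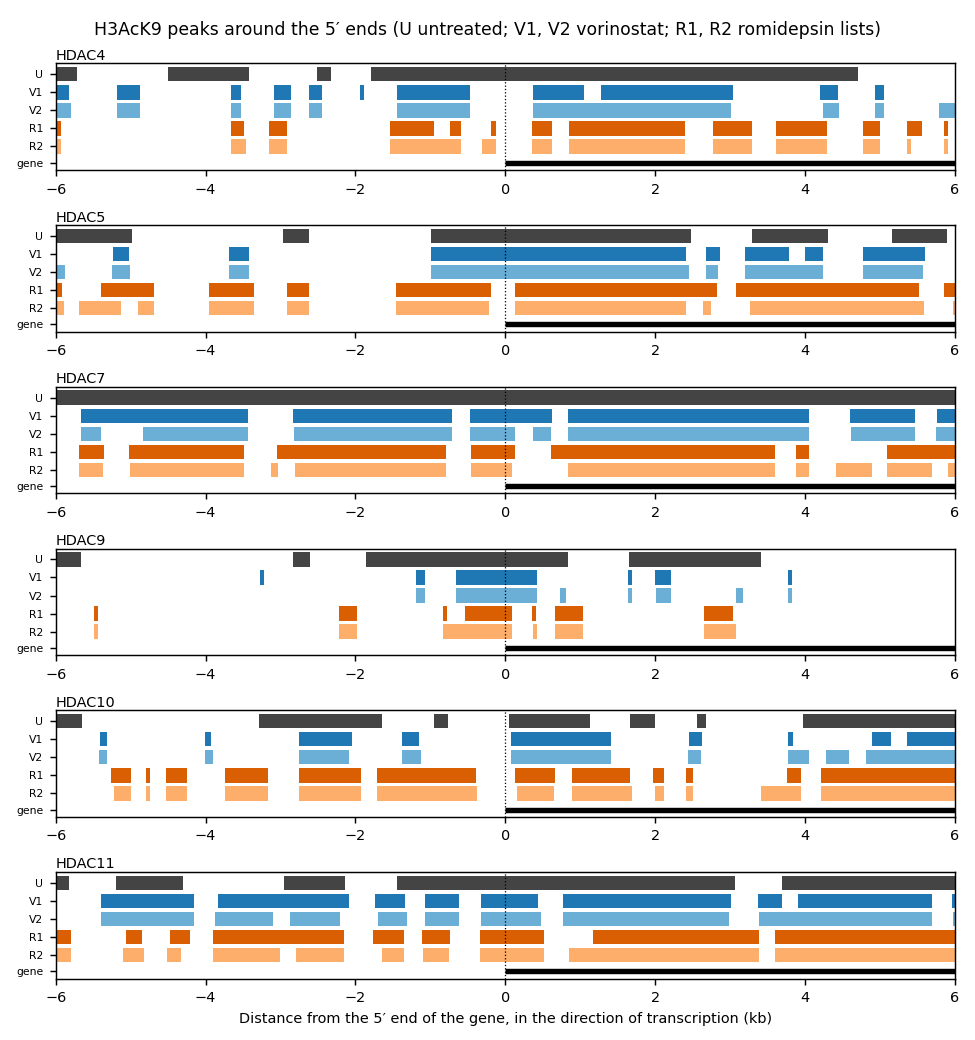
Peaks within 6 kb of the stated 5′ end (dotted line) of each gene, drawn as bars along the distance from that end in kb, with 1 row per list and the gene as a black bar. Broad untreated peaks at HDAC4, HDAC7 and HDAC11 appear as several shorter peaks in the treated lists, while the HDAC5 peak stays whole only with vorinostat.

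Over all 6 promoter windows, 80.2% of bases were covered in untreated cells, 60.9% and 61.2% with vorinostat, and 62.0% and 63.7% with romidepsin. A change of at least 1.5-fold downward was reached by 2 of 6 members, HDAC4 and HDAC9, with each drug, and none reached it upward. Among 4 kb tiles of the genome with at least 1000 covered bases in untreated cells, 52.5% were lower by this measure with vorinostat and 42.9% with romidepsin, and 3.09% and 6.12% were higher. These tiles were selected by their untreated coverage. Their median fold was 0.64 with vorinostat and 0.74 with romidepsin, beside 0.82 and 0.75 for the 6 promoters. With 6 genes, the 33.3% of member promoters that were lower cannot be told apart from the tile shares. The members past 1.5-fold also depended on the setting. With gaps of up to 300 bp joined, HDAC9 still passed downward, HDAC4 (0.69 and 0.76) did not, and HDAC10 was at 1.61 with romidepsin. With gaps of up to 1000 bp, HDAC4 was at 0.93 and 0.88, and HDAC10 was at 0.55 with vorinostat.

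Among the gene bodies, HDAC5 had the highest folds of the 6. Its body was covered over 38.3% in untreated cells, 43.8% and 42.5% with vorinostat, and 61.9% and 58.3% with romidepsin, at 1.13-fold and 1.57-fold. It was the only member body past 1.5-fold with either drug. With only peaks scoring at least 1, its romidepsin fold was 1.06. Under that filter HDAC11 passed upward, at 4.77 with vorinostat and 7.39 with romidepsin. Downward, HDAC4 (0.55 and 0.63) and HDAC7 (0.57 and 0.29) passed with both drugs, and HDAC9 with romidepsin (0.55). With gaps of up to 1000 bp joined, HDAC5 was past 1.5-fold with both drugs (1.94 with romidepsin) and HDAC4 with romidepsin (1.76). Of 50 kb tiles at least 30% covered in untreated cells, 1.96% were higher by this measure with romidepsin and 12.1% lower, and with vorinostat 0.213% were higher and 27.1% lower. When the gene was divided into 4 segments of equal length from the 5′ end, the vorinostat bases beyond the untreated level sat in the first segment, which went from 46.3% to 73.3% and 74.7%. The third segment went from 37.6% to 31.1% and 25.0%. With romidepsin all 4 segments were above the untreated value in both lists.

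At HDAC7, the body was covered over 53.6% in untreated cells, 45.4% and 38.4% with vorinostat, and 55.5% and 54.6% with romidepsin. With romidepsin the ends of the gene moved in opposite directions. The 5′ segment went from 100% to 77.2% and 75.2%, while the 3′ segment went from 27.1% to 52.3% and 49.5%. With vorinostat the 3′ segment stood at 22.7% and 12.0%.

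The body of HDAC4 was covered over 15.3% in untreated cells, 12.9% and 12.2% with vorinostat, and 16.0% and 16.8% with romidepsin. Peaks were concentrated in the second segment, which was covered over 30.1% in untreated cells and 24.3% to 29.9% in the treated lists. The 3′ segment was covered over 7.66% in untreated cells, 7.58% and 7.10% with vorinostat, and 11.8% and 12.8% with romidepsin. RefSeq lists 4 further HDAC4 starts at 103 to 134 kb inside the gene in hg38. At like distances, between 100.9 and 134.4 kb, the untreated hg19 list held 9 peaks. Among these were peaks of 3323 bp at 124.3 to 127.7 kb and of 2094 bp at 132.3 to 134.4 kb. The peak nearest to the start at 103.1 kb ended at 101.9 kb. The hg19 5′ end is given only to the nearest 1 kb. Whether the hg38 starts at 126.9, 128.0 and 134.1 kb fall within a peak therefore cannot be read. Of the 3 widest peaks, which include a peak of 2239 bp, 58.3% to 96.7% was covered in each treated list. Of the other 6, the covered share ran from 0% to 100%, and a peak of 1763 bp was covered over 3.40% in each vorinostat list and 28.0% in each romidepsin list. The builds were not joined, so the distances are only set side by side.

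HDAC9 had the sparsest body. It was covered over 6.31% in untreated cells, 6.34% and 6.27% with vorinostat, and 5.88% and 6.23% with romidepsin, at 1.00-fold and 0.96-fold. Its total was nearly constant, but its peaks were not in the same places. The first of 4 segments went from 6.61% to between 3.16% and 4.98% in the treated lists, and the second went from 8.71% to between 11.3% and 11.6%. At 35 kb from the 5′ end, a 10 kb step was covered over 22.9% in untreated cells, 4.47% and 10.8% with vorinostat, and 1.92% and 1.83% with romidepsin.

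The further HDAC9 starts in RefSeq lie 409 to 422 kb inside the gene in hg38, with the low-CpG sequence shown above. At like hg19 distances the untreated list held a peak of 2280 bp at 408.3 to 410.6 kb, of which 77.8% and 85.7% was covered with vorinostat and 70.9% and 60.4% with romidepsin. A peak of 847 bp at 421.8 to 422.7 kb was covered over 93.7% in both vorinostat lists and 67.8% and 72.3% with romidepsin, and 1 of 1121 bp at 423.2 to 424.4 kb over 66.5% to 72.8% in the treated lists. These peaks were singled out after their values were seen. They contrast with HDAC9 as a whole, where 19.0% to 22.9% of the untreated covered bases were also under treated peaks.

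**Figure D3:**
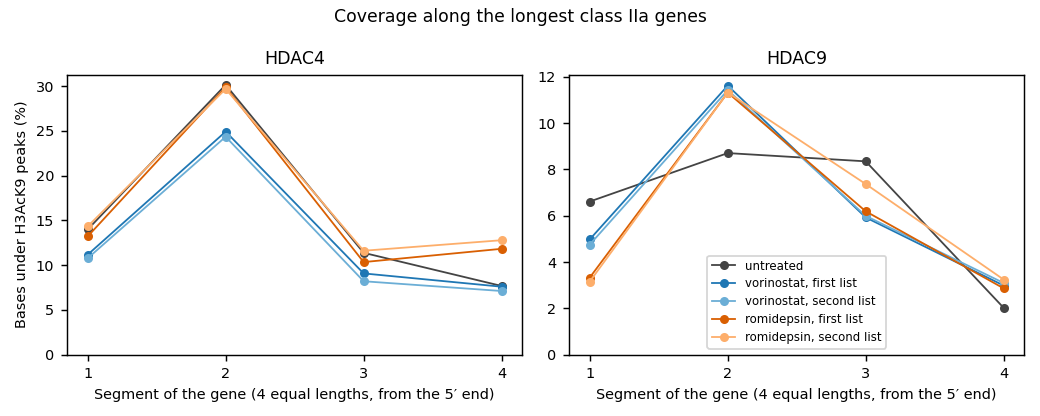
Percent of bases under H3AcK9 peaks in 4 equal segments of HDAC4 (left) and HDAC9 (right), counted from the 5′ end, with 1 line per list. In the second segment of HDAC9 all 4 treated lists lie above the untreated list, and in its first segment they lie below.

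The HDAC10 body of 5 kb was covered over 63.1% in untreated cells, 42.6% and 59.2% with vorinostat, and 59.3% and 66.4% with romidepsin. The vorinostat lists differed by more than the distance of the second list from the untreated value, so no direction was read there. Its flanks moved with romidepsin. The upstream flank, where MAPK12 lies, went from 30.2% in untreated cells to 21.0% and 17.6% with vorinostat and to 62.8% and 57.7% with romidepsin. The HDAC11 body was covered over 53.3% in untreated cells, 50.6% and 51.3% with vorinostat, and 73.1% and 70.4% with romidepsin, at 0.96-fold and 1.35-fold. The romidepsin bases were mostly in its 3′ segment, which went from 27.5% to 74.2% and 74.5%, against 43.1% and 33.4% with vorinostat.

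**Figure D4:**
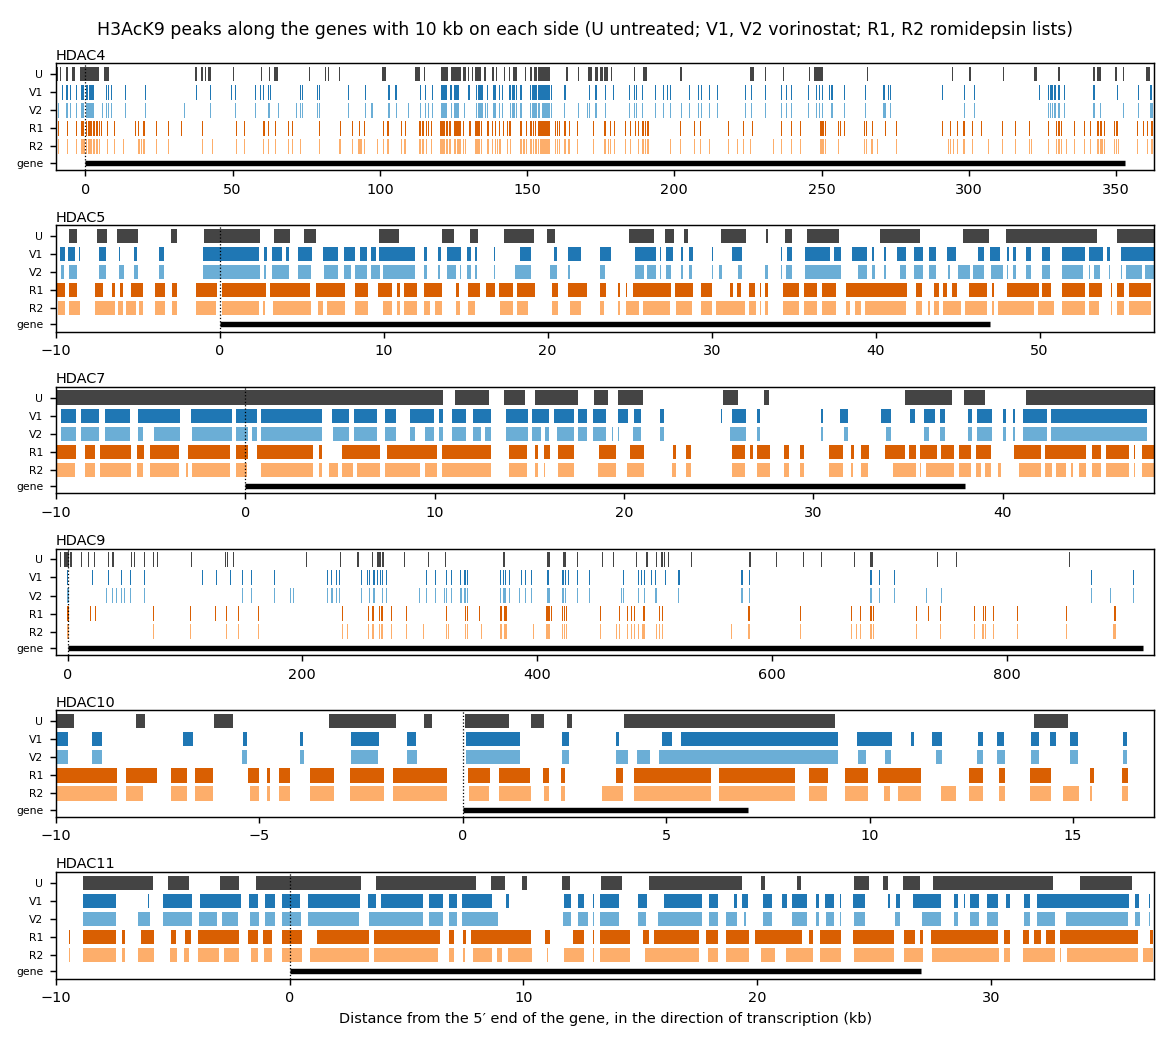
All peaks at each gene with its 10 kb flanks, drawn as bars along the distance from the stated 5′ end in kb, with 1 row per list and the gene as a black bar. HDAC9 shows scattered narrow peaks in every list, and the 3′ parts of HDAC5, HDAC7 and HDAC11 are more filled in the romidepsin rows than in the vorinostat rows.

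Across whole loci, both romidepsin lists exceeded both vorinostat lists in covered bases at HDAC4, HDAC5, HDAC7, HDAC10 and HDAC11, and at HDAC9 both lay below them. HDAC10 was covered over 36.0% and 35.5% with vorinostat against 56.5% and 57.4% with romidepsin, and HDAC5 over 45.7% and 43.4% against 61.5% and 60.8%. This order was frequent in the genome. Of 50 kb tiles at least 30% covered in untreated cells, 68.2% had both romidepsin lists above both vorinostat lists, and of all 10 kb tiles tested, 42.5% did. Relative to untreated cells, the locus folds with romidepsin were 1.46 at HDAC10, 1.33 at HDAC5, 1.13 at HDAC11, 1.00 at HDAC4, 0.93 at HDAC9 and 0.90 at HDAC7. The 50 kb tiles had a median of 0.90, with the middle 80% of them between 0.65 and 1.23, so HDAC10 and HDAC5 lay above that range. The HDAC10 locus, at 27000 bp, is shorter than these tiles, so its place against their range is only approximate. HDAC4 and HDAC9, covered over 16.6% and 6.57% in untreated cells, do not meet the 30% limit of these tiles and were not read against them. With vorinostat, the locus folds ran from 0.80 at HDAC4 to 0.97 at HDAC5, and those of HDAC5, HDAC7, HDAC10 and HDAC11 lay within the tile range of 0.55 to 1.01. These folds depended on how peaks were joined and filtered. With neighbouring peaks joined over gaps no longer than 1000 bp, all 6 locus folds with vorinostat were above 1 (1.05 to 1.38), and HDAC7 and HDAC9 were at 1.16 and 1.34 with romidepsin. Among peaks with a score of at least 1, HDAC5 was at 0.95 and HDAC4 at 0.65 with romidepsin. HDAC10 stayed above the untreated level with romidepsin in each of these settings, and the HDAC9 promoter below it with both drugs.

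In steps of 10 kb, 84 of the 150 tiles at the 6 loci had enough covered bases to be compared. With vorinostat 20 were higher and 24 lower by 1.5-fold or more, where 21.7% of tested tiles in the genome were higher and 32.9% lower. With romidepsin 27 were higher and 13 lower, against 25.5% and 27.5% in the genome. As shares of the 84, these are 23.8% and 28.6% with vorinostat and 32.1% and 15.5% with romidepsin. With romidepsin set directly against vorinostat, 21 were higher and 6 lower, where the genome had 24.5% and 15.3%. Without the 33 tested tiles of HDAC9, 9 of 51 were higher and 12 lower with vorinostat, and 15 higher and 6 lower with romidepsin, and 17 were higher and 1 lower in the direct comparison. At HDAC5, HDAC7, HDAC10 and HDAC11 none of the 20 tested tiles was lower with romidepsin, and 6 were higher. These loci were covered over 39.0% to 67.5% in untreated cells, and the genome shares above include sparser tiles. Denser tiles of 50 kb, at least 30% covered in untreated cells, were lower in 12.1% and higher in 1.96% with romidepsin. No share was taken for 10 kb tiles as densely covered, so these counts were not read against the genome.

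Untreated peaks were then followed one by one, counting a peak as kept if it shared at least 1 base with a peak in either treated list. Of 234 untreated peaks at the 6 loci, 94 (40.2%, exact 95% interval 33.8% to 46.8%) met no vorinostat peak and 90 (38.5%, 32.2% to 45.0%) met no romidepsin peak. These intervals cover counting error only. They treat the 234 peaks as independent and as having 1 common share, which differed between the genes as given below. They were therefore not read against the genome shares. In the genome, 35.3% of untreated peaks met no vorinostat peak and 33.2% no romidepsin peak. Most of these peaks were at the long genes. At HDAC9, 57 of 103 met no vorinostat peak and 64 no romidepsin peak, and at HDAC4 28 and 23 of 70 did not. At the other 4 genes the numbers were 9 and 3 of 61, and at HDAC7 and HDAC11 every untreated peak met a romidepsin peak. Peaks that met none with either drug were narrower than those kept with both, with median widths of 269 against 806 bp at HDAC4 and 305.5 against 738.5 bp at HDAC9.

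By bases, 46.9% and 46.6% of the untreated covered length at the 6 loci was also covered with vorinostat, and 50.4% and 50.8% with romidepsin. The genome gave 42.3% and 41.9%, and 45.2% and 44.7%. The share was higher in the promoter windows, at 64.0% to 72.1%, than in the bodies, at 38.8% to 43.4%. By gene it was lowest at HDAC9 with both drugs. It was highest at HDAC7 with vorinostat, at 76.3% and 68.8%, and at HDAC11 with romidepsin, at 77.5% and 80.4%. Peaks outside the untreated ones were most frequent at HDAC9, where they made up 79.0% to 83.0% of treated body peaks, and at HDAC4, with 67.3% to 71.0%. At HDAC7 they made up 22.2% to 34.6%.

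**Figure D5:**
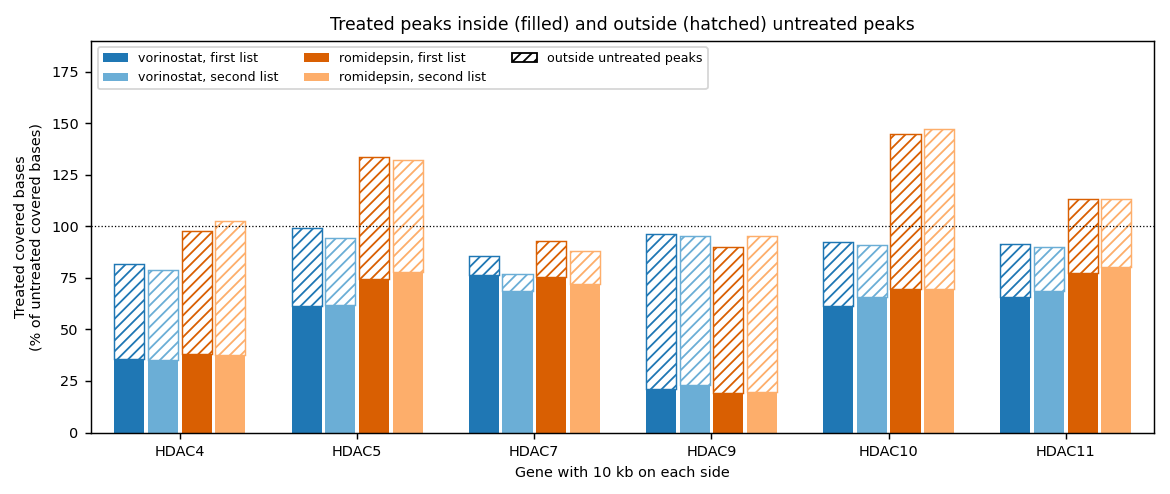
Bases under treated peaks at each gene with its 10 kb flanks, as percent of the bases under untreated peaks, split into those inside untreated peaks (filled) and outside them (hatched), with 1 bar per treated list. The dotted line at 100 marks the untreated length. At HDAC9 the filled part is 19.0% to 22.9%, and at HDAC10 the romidepsin bars exceed the line through their hatched part.

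Relatives and partners of these enzymes were set beside these values. Of 7 other genes off chromosome X (HDAC1, HDAC2, HDAC3, MEF2A, MEF2C, MEF2D and NCOR1), 0 were higher and 3 lower by 1.5-fold at the locus with vorinostat, and 0 higher and 0 lower with romidepsin. Their median fold was 0.74 with vorinostat and 0.94 with romidepsin, beside 0.91 and 1.07 for the 6 members, of which 0 passed 1.5-fold in either direction. Of 50 kb tiles at least 30% covered in untreated cells, 27.1% were lower and 0.213% higher with vorinostat. With romidepsin 12.1% were lower and 1.96% higher. HDAC2, MEF2A, MEF2C and NCOR1, like HDAC4 and HDAC9, do not meet this 30% limit. With so few genes, nothing was read from these counts. No gene of the list passed it in the same direction with both drugs. In percent of locus covered across the 3 conditions, the nearest gene of this list was MEF2C for HDAC9, and HDAC2 for HDAC4, where the differences summed to 5.49 percentage points. HDAC5 and HDAC10 were nearest to MEF2D (14.0 and 25.5 points), and HDAC7 and HDAC11 to HDAC3 (20.1 and 17.3 points). HDAC6 and HDAC8, the other class IIb and a class I gene, lie on chromosome X. Neither romidepsin list had a peak on that chromosome, and both genes were not compared.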

How the data were processed

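H3AcK9 ChIP-seq of 3 ChIP samples of SKOV3 WT cells was analysed from 5 deposited peak lists. Per the study's methods, the authors filtered and aligned reads (BWA is among the aligners named), and the peak caller was MACS 1.4.2 with its p-value threshold at 1e-05. Each peak was deposited by the authors with a score whose scale the sources used here do not name, so a filter on it is not known to be stricter. The processing notes name hg38, but peaks lie past the hg38 end of 12 of 20 chromosomes compared, and the lists were read as hg19. No coordinates were converted. Depth is unknown.

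Overlapping peaks were merged, and peaks and covered bases were counted in Python 3.11.15 (SciPy 1.17.1, pandas 2.3.3, NumPy 2.4.6) over the gene with 10 kb flanks, a promoter window of 2 kb on each side of the 5′ end, and the gene body outside it. Figures were drawn with Matplotlib 3.10.9. Covered bases matched bedtools 2.31.1 in 30 of 30 gene and list pairs, and the interval functions recovered 127 of 127 quantities from 9000 simulated peaks. Genome tiles of 10 kb were tested where the mean over the conditions was at least 500 covered bases, with 100 bases added to each side of a ratio. The 4 kb and 50 kb tiles, the direct comparison of the drugs and the sums without HDAC9 were chosen after seeing the data. Interval bounds are exact (Clopper-Pearson). The genes, the gene lists and the rules were chosen with earlier results of these data known. All 6 members were described. Of the other pathway genes, which are listed by name, values were to be given for those past 1.5-fold in the same direction with both drugs and for the nearest gene to each member. The list first drawn up held 1 more gene, which is not reported here. Alternatives were each list alone, filters on score and width, merging across gaps, other promoter windows, other overlap rules and other tile settings.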

Additional observations from a re-analysis of the deposited data

How the results depend on the processing

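With 1 sample per condition no result carries a test, and the peak lists give no depth. No paired analysis was possible because each condition has 1 ChIP sample. Of 100 values under the alternatives tried, 76 were classed as unchanged, 18 as moved and 6 as changed in direction. For folds, unchanged meant within the counting interval of the main value. For the 6 promoter windows this interval was wide, at 0.32 to 1.69 with vorinostat and 0.39 to 1.75 with romidepsin. Values of 0.47 and 0.39 were therefore still classed as unchanged there. The number classed as unchanged is thus not a measure of how stable the values were. Counts of peaks and tiles were classed without the exact intervals given above, and some peak counts classed as unchanged lie outside those. The covered bases of the 6 promoter windows kept their direction under every alternative tried (0.76-fold with vorinostat and 0.78-fold with romidepsin), but came to 0.47 and 0.39 with only peaks scoring 1 or more. With vorinostat, covered bases at the 6 loci (0.89-fold) came to 0.73 with only peaks scoring 1 or more and to 1.22 when merged across gaps of up to 1000 bp, and those of the bodies (0.92-fold) to 1.03 and 1.28 when merged across gaps of up to 300 and 1000 bp. With romidepsin, the loci (1.05-fold) came to 0.72 with the score filter, 0.99 with a minimum peak width and 1.47 with gaps of up to 1000 bp, and the bodies (1.10-fold) to 0.73 with the score filter and 1.56 with these gaps. Peak numbers (2.5-fold with vorinostat and 2.72-fold with romidepsin) came to 2.07 and 1.81 with the score filter, 1.79 and 1.94 with the width filter, 2.10 and 2.20 with gaps of up to 300 bp, and 1.74 and 1.59 with gaps of up to 1000 bp. The 94 untreated peaks without a vorinostat peak became 58 with the score filter and 163 when 50% of a peak had to be covered. The 90 without a romidepsin peak became 69 with the score filter, 58 with gaps of up to 1000 bp and 152 with the 50% rule. The score filter and the joining of gaps also lower the number of untreated peaks. The counts under these settings are therefore not out of 234 and do not show a lower share. Tiles past 1.5-fold numbered 94 (vorinostat, from 44) and 90 (romidepsin, from 40) when 1 covered base sufficed for testing, and 78 with romidepsin and gaps of up to 1000 bp. The causes were not tested.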

Other observations

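Among peaks with a score of at least 1, HDAC11 and HDAC10 stood apart from the other members. The body of HDAC11 was covered over 5.71% in untreated cells, 27.3% with vorinostat and 42.2% with romidepsin, or 4.77-fold and 7.39-fold. HDAC10 with its flanks was covered over 2.37%, 1.59% and 14.2%, respectively. At the HDAC4 promoter no untreated or vorinostat peak reached this score, although the window was covered over 94.7% in untreated cells, and with romidepsin 8.15% was covered by such peaks. At the HDAC9 promoter the share was 76.2% in untreated cells, 15.2% with vorinostat and 0% with romidepsin. The scale of the score is not known, and these values have no replicate.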
